A study of Homo sapiens with 4 samples.

Results

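CXCL1, CXCL2, CXCL3, CXCL5, CXCL6 and CXCL8 (IL8) are the neutrophil-attracting chemokines of the CXC family that were followed here after knockdown of ALKBH3 in PC3 cells, a human prostate cancer cell line. Every array probe assigned to one of these 6 genes was taken, whatever its signal, which gave 8 probes among the 34127 probes of the array, and 6 genes among the 19102 genes that its probes name. CXCL1 and CXCL2 had 2 probes each and the other members 1 probe each, all of them single spots. The spot tables give no gene name, so probes were assigned through the RefSeq accession printed for each of them. CXCL1, CXCL2 and CXCL3 are closely related in sequence, so their probes may bind one another's transcripts. The probe sequences were not used here, and such cross-hybridization was not tested.

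The study had infected PC3 cells, grown in DMEM with fetal calf serum, for 48 h with lentivirus carrying either an shRNA against ALKBH3, an AlkB-family enzyme that removes methyl groups from damaged bases, or a control shRNA, which the methods give as directed against GFP. Infected cells were selected with puromycin and RNA was taken 48 h or 96 h past selection. Each of these 4 combinations was hybridized to 1 single-colour Agilent array. A second time point is thus the only repeat that an shRNA has, a p-value measures the spread between these arrays, and their number limits the precision. Cells that received the ALKBH3 shRNA, whose sequence the labels leave unnamed, are called knockdown cells and their arrays knockdown arrays. All values come from 1 cell line.

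The chemokines of this group carry the amino acids glutamate, leucine and arginine (ELR) ahead of their paired cysteines and act on the receptors CXCR1 and CXCR2, through which they draw neutrophils out of the blood and act on endothelial cells. Epithelial and tumour cells make them when interleukin-1, tumour necrosis factor or Toll-like receptors activate NF-kB, which binds a site just upstream of each gene together with AP-1 or C/EBP factors, and their mRNAs are removed rapidly through AU-rich elements. In the RefSeq gene table of GRCh38.p14 the family lies together on chromosome 4, in the order CXCL8, CXCL6, PF4V1, CXCL1, PF4, PPBP, CXCL5, CXCL3 and CXCL2.

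The 140 bases before the annotated start of each gene are shown because the members share there a 9-letter kB element, the sequence that NF-kB binds. They are RefSeq sequences of GRCh38.p14, written 5′ to 3′ on the strand of the gene and ending 1 base before its start. Capitals mark GGAATTTCC and, in CXCL8, the AP-1 letters TGANTCA.
CXCL1 (chr4:73869253-73869392, plus strand): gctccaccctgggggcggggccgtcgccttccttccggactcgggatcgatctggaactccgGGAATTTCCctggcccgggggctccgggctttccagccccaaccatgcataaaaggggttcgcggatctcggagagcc
CXCL2 (chr4:74099196-74099335, minus strand): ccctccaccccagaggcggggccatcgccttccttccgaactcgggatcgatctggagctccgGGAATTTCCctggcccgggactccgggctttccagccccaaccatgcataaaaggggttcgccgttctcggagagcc
CXCL3 (chr4:74038690-74038829, minus strand): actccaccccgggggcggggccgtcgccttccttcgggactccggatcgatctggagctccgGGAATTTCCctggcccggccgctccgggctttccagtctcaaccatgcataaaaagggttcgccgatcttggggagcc
CXCL5 (chr4:73998678-73998817, minus strand): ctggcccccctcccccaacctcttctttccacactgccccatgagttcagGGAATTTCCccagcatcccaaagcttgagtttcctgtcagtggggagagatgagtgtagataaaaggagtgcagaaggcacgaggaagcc
CXCL6 (chr4:73836538-73836677, plus strand): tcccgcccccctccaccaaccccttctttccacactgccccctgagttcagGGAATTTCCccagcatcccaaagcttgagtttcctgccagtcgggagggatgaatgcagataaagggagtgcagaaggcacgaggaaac
CXCL8 (chr4:73740429-73740568, plus strand): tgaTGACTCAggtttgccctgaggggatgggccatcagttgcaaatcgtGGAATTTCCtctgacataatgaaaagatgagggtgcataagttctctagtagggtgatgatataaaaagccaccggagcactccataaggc

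The letters GGAATTTCC, searched on both strands (GGAAATTCC as the reverse complement) from 250 bases before to 50 bases after the start, were present in all 6 member promoters and in 162 of 35116 promoters of the table, or 0.461%. They began 78 bases before the start of CXCL1 and CXCL3, 77 bases before that of CXCL2, 90 bases before that of CXCL5, 89 bases before that of CXCL6 and 91 bases before that of CXCL8, in every case on the strand of the gene. The neighbouring platelet chemokine genes PF4, PF4V1 and PPBP did not hold these letters in the same window. TGANTCA, the AP-1 letters, which read the same on both strands and overlap no kB letters in these promoters, were found in 7.71% of all promoters and among the members in CXCL8 alone, 137 bases before its start. TATAAA, searched on both strands (TTTATA), was found in 11.5% of all promoters and among the members again in CXCL8 alone, 31 bases before its start. Only exact letters were counted. The sequences of CXCL1, CXCL2 and CXCL3 hold cataaa and those of CXCL5 and CXCL6 gataaa, which differ from it in the first letter. Whether these act as TATA boxes was not tested.

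Beyond the shared element the promoters fell into related sets. Over 130 bases aligned without gaps on the kB element, CXCL1 and CXCL3 were identical at 91.5% of positions and CXCL5 and CXCL6 at 90.0%. CXCL2 matched CXCL1 at 71.5% and CXCL3 at 67.7%, in an alignment that does not allow the lengths to differ. All other pairs, CXCL8 with each of the others included, matched at 26.9% to 37.7%. A match of letters describes the sequence and is not a measured binding site.

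**Figure D1:**
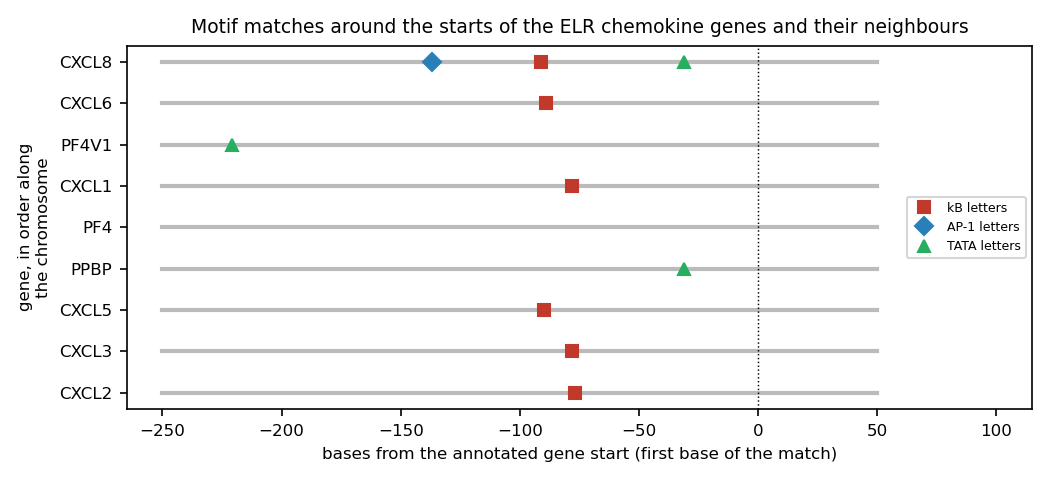
Positions of 3 motifs around the annotated starts of the ELR chemokine genes and of the platelet chemokine genes between them. The horizontal axis is the distance in bases from the gene start to the first base of the match, and genes are listed in their order along the chromosome. Squares (kB letters) stand between 77 and 91 bases before the start in the 6 ELR chemokine genes and are missing from PF4V1, PF4 and PPBP.

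Array quality and the knockdown set the frame for these values. The intensity at the 75th percentile was between 2150 and 2394 over the arrays, between 67.0% and 70.9% of probes were well above background, and no spot was saturated. All levels are log2 intensities relative to the 75th percentile of the array. ALKBH3 itself stood at -0.63 in control and -2.67 in knockdown cells at 48 h, and at -0.61 and -2.68 at 96 h, on A_23_P35989, and its second probe had the same order. The log2 fold changes of the 2 probes were -2.05 and -1.63 (limma adjusted p-values 0.228 and 0.247, and 0.0176 and 0.0289 with time point as a block). The 48 h arrays shared 1 slide and the 96 h arrays another, so time and slide cannot be told apart, while control and knockdown are always compared on 1 slide. The 6 epithelial markers were well above background on all arrays, and KLK3, a gene of luminal prostate cells, on none. Of the markers of other cells, 6 of 8 leukocyte genes were above background on all arrays with summed levels between -1.97 and -1.87, while MPO was above it on none. Of the 7 fibroblast and endothelial genes, 5 were above background on all arrays and COL1A2 and PDGFRB on none, and their summed level was -0.29 in control and 0.06 in knockdown cells at 48 h and -0.74 and -0.19 at 96 h. That sum was higher in knockdown cells at both times, as were the chemokines, and it was carried by COL1A1 (-0.78 and -0.26 at 48 h, -1.45 and -0.55 at 96 h). DCN was also higher at both times, whereas COL3A1, PECAM1 and CDH5 were lower at both. All arrays were of the PC3 line, and any bearing of these signals on the chemokine values was not tested.

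CXCL8, known as IL8 before its systematic name, is the most widely studied neutrophil attractant of the group. Its probe, A_32_P87013, had a log2 level of -3.77 in control and -2.74 in knockdown cells at 48 h, and of -4.74 and -3.77 at 96 h, from intensities of 157, 343, 87.7 and 175. Knockdown cells had the higher level at each time, yet their 96 h level lay at the 48 h level of control cells. The log2 fold change, knockdown over control, was 1.04 for the 48 h pair of arrays and 0.96 for the 96 h pair. Over the 4 arrays it was 1.0, a 2.0-fold difference with a standard error of 0.48 and a 95% interval from -0.26 to 2.27 (limma adjusted p = 0.731). When time point entered as a block, which sets each knockdown array against the control array of its own slide, the standard error was 0.09, the interval 0.78 to 1.23 and the limma adjusted p 0.03. CXCL8 passed a cutoff of 2-fold with an unadjusted p below 0.05 with that block, and also when the 48 h control array (log2 fold change 1.48) or the 96 h knockdown array (1.52) was left out. It did not pass when the 48 h knockdown array (0.48) or the 96 h control array (0.52) was left out, so the log2 fold change ranged from 0.48 to 1.52 with the array that was missing. The size of the CXCL8 difference also depended on the processing. Its log2 fold change was 0.65 with normexp background correction and 0.80 in the authors' normalized values, both below 2-fold. It was 0.95 with median centring, 0.96 with quantile normalization and 1.02 with scaling on probes above background on all arrays. In RNA from whole cultures, more cells that make a chemokine and more of its mRNA per cell cannot be told apart.

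CXCL1, first isolated as a growth-stimulating activity of melanoma cells, was read by 2 probes. A_23_P7144 had a log2 level of 0.99 in control and 1.63 in knockdown cells at 48 h, and of 0.55 and 1.25 at 96 h. A_33_P3330264 read -1.52 and -0.76 at 48 h, and -1.65 and -1.02 at 96 h. On both probes both knockdown arrays lay above both control arrays. The difference of knockdown from control was 0.67 (standard error 0.22, 95% interval 0.08 to 1.26, limma adjusted p = 0.601) on A_23_P7144. It was 0.69 (standard error 0.15, interval 0.30 to 1.09, limma adjusted p = 0.403) on A_33_P3330264. The probes thus gave nearly the same difference, about 1.6 on the linear scale (1.59 and 1.62). When time point entered as a block both passed, at limma adjusted p-values of 0.0409 and 0.042.

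CXCL2, a close copy of CXCL1 that macrophages and epithelia release, was also read by 2 probes, which gave different values. A_24_P257416 had log2 levels of -2.27 in control and -1.56 in knockdown cells at 48 h, and of -2.45 and -2.0 at 96 h. A_23_P315364 had -1.58 and -1.28 at 48 h, and -2.16 and -1.88 at 96 h. The groups did not overlap on A_24_P257416, while on A_23_P315364 the 48 h control array lay above the 96 h knockdown array. Knockdown and control differed by 0.58 (standard error 0.19, limma adjusted p = 0.599) on A_24_P257416 and 0.29 (standard error 0.30, limma adjusted p = 0.913) on A_23_P315364. With time point as a block the 95% intervals were 0.31 to 0.85 and 0.07 to 0.52, which overlap, and the limma adjusted p-values 0.064 and 0.14. The difference between the 2 probes was not tested. Without the 48 h knockdown array the log2 fold change on A_23_P315364 was -0.0064, while the matched arrays gave 0.31 at 48 h and 0.28 at 96 h.

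CXCL3, the remaining member of the CXCL1 subgroup, had log2 levels of -4.64 in control and -3.91 in knockdown cells at 48 h, and of -4.75 and -4.28 at 96 h on A_24_P183150. Both knockdown arrays lay above both control arrays. The log2 difference was 0.60 (standard error 0.17, 95% interval 0.15 to 1.05, limma adjusted p = 0.527), and the block brought the limma adjusted p to 0.0614.

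CXCL5, an epithelial neutrophil attractant, stood at nearly the same level on every array. A_24_P277367 had log2 levels of -0.95 in control and -0.91 in knockdown cells at 48 h, and of -1.01 and -0.92 at 96 h. The 4 values span 0.09 log2 units, and the knockdown values were the higher ones by less than the error of about 10% that the image software gives for the signal of each spot. Its log2 fold change was 0.06 with a 95% interval from -0.25 to 0.37 (limma adjusted p = 0.973), and the block gave an interval of -0.16 to 0.28.

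CXCL6, which like CXCL8 acts through both receptors, had log2 levels of -2.68 in control and -2.52 in knockdown cells at 48 h, and of -3.03 and -2.81 at 96 h on A_23_P155755. The groups overlapped, since the 48 h control array lay above the 96 h knockdown array. The difference was 0.19 with a 95% interval from -0.31 to 0.68 (limma adjusted p = 0.913), and the block gave an interval of -0.04 to 0.41 and an adjusted p of 0.28.

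**Figure D2:**
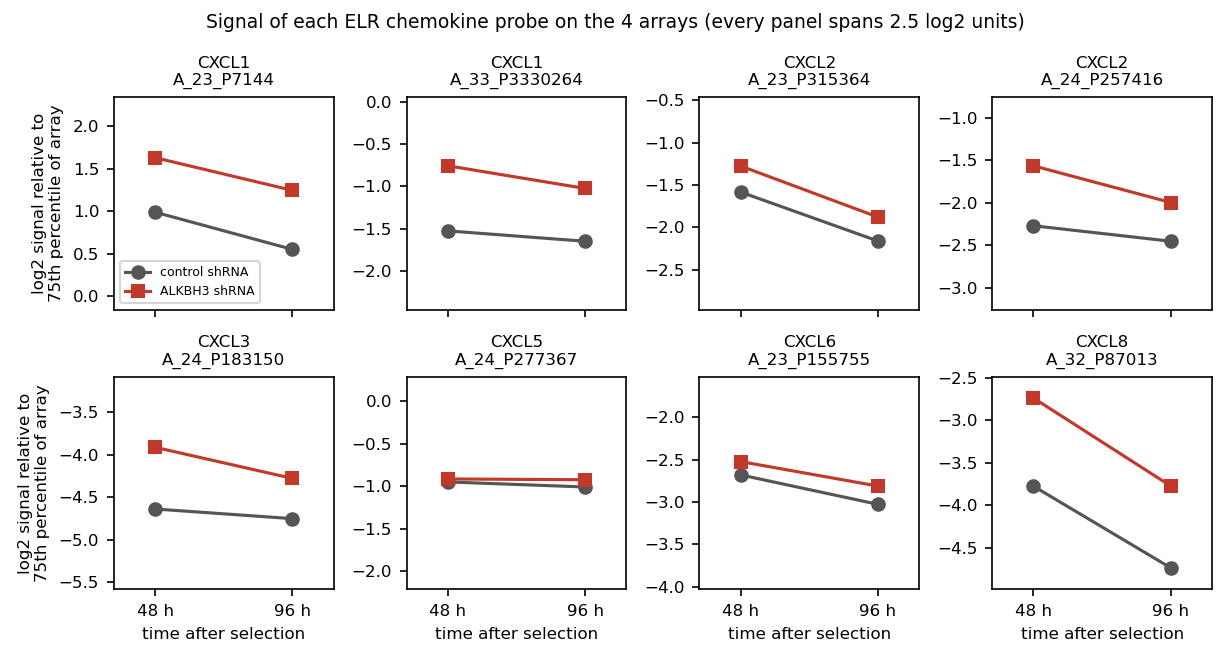
Level of each ELR chemokine probe on the 4 arrays, as log2 intensity relative to the 75th percentile of the array, against the time past selection, with circles for control shRNA and squares for ALKBH3 shRNA. Each point is 1 array, lines join the arrays of 1 shRNA, and panels share a span of 2.5 log2 units but not a zero. The squares lie above the circles at both times on all 8 probes, by the widest distance for CXCL8 and by the narrowest for CXCL5.

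Set together, all 8 probes were higher in knockdown cells at both time points, as were 34.5% of the probes tested. On 6 of 8 probes both knockdown arrays exceeded both control arrays, as on 17.4% of the probes tested. For CXCL8 and CXCL5 the lower knockdown array exceeded the higher control array by only 0.0015 and 0.03 log2 units. The median log2 fold change was 0.59 over the 8 probes (0.67 for the 48 h and 0.47 for the 96 h arrays). Over all 23244 probes tested it was 0.00, and their interquartile range was -0.12 to 0.14. The difference was larger at 48 h on 5 of 8 probes. Probes of 1 gene, and probes of transcripts as alike as those of CXCL1, CXCL2 and CXCL3, are not separate readings.

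At the cutoffs of the study, a change of 2-fold with an unadjusted p below 0.05 in limma, 0 of 8 probes were higher, against 0.886% of all probes tested, and 0 were lower, against 0.232%. At an unadjusted limma p below 0.05 alone, 4 of 8 probes were higher, against 4.32%: both CXCL1 probes, the CXCL2 probe A_24_P257416 and the CXCL3 probe. At a limma adjusted p below 0.05 the count was 0, as it was over all probes (0%). It was also 0 in the unpaired Student test that the methods name. In that test 1 of 8 member probes had an unadjusted p below 0.05, beside 1632 of all 23244 probes in either direction. When time point entered as a block, 3 of 8 probes passed the limma adjusted p, against 1.97% of all probes in the same direction: both CXCL1 probes and CXCL8, of which CXCL8 also reached 2-fold. The median log2 fold change of the member probes was 0.39 without the 48 h knockdown array and 0.47 without the 96 h control array. It was 0.66 when the 48 h control array was left out and 0.79 when the 96 h knockdown array was.

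**Figure D3:**
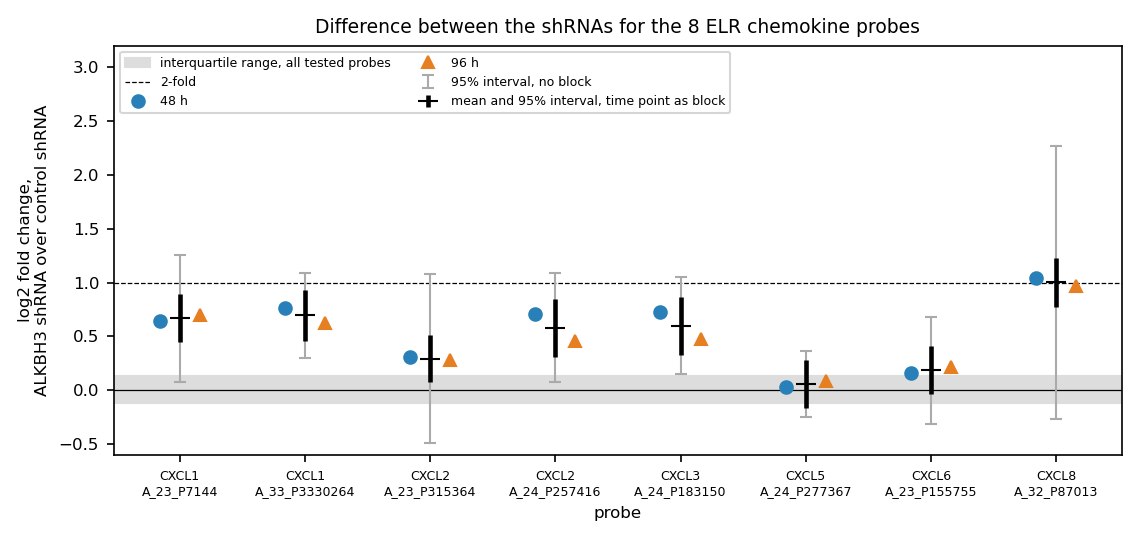
Log2 fold change of ALKBH3 shRNA over control shRNA for each ELR chemokine probe, with circles for 48 h, triangles for 96 h (1 array against 1 array each) and bars for the mean with its 95% interval from limma, thin without and thick with time point as a block. The grey band is the interquartile range of all tested probes, from -0.12 to 0.14. CXCL8 lies at the 2-fold line (1.0), the probes of CXCL1, CXCL2 and CXCL3 between 0.29 and 0.69, and CXCL5 and CXCL6 at 0.06 and 0.19.

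The second factor of the design was time. All 8 probes were lower at 96 h than at 48 h with both shRNAs, as were 36.4% of the 23274 probes tested in that comparison. The median log2 difference of 96 h from 48 h was -0.31 over the members and 0.01 over all probes tested for the shRNAs. CXCL8 had the widest difference, -0.96 in control and -1.04 in knockdown cells, and -1.0 over all arrays (limma adjusted p = 0.343). The CXCL2 probe A_23_P315364 followed with -0.58 and -0.60 (limma adjusted p = 0.196), and CXCL5 was at the other end with -0.06 and -0.01. None of the 8 probes was past the 2-fold and p cutoffs, against 0.666% of all probes that were lower at 96 h, 1 of 8 had an unadjusted limma p below 0.05 (8.41% of all probes were lower at that p), and 0 passed the adjusted p (0% of all probes). With shRNA as a block, 2 of 8 passed the limma adjusted p, against 5.32% of all probes in that direction, CXCL8 at 0.0259 and CXCL2 on A_23_P315364 at 0.0307, while CXCL1 on A_23_P7144, with a log2 difference of -0.41, was at 0.0513.

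By the smallest root mean square difference of centred log2 levels over the 4 arrays, the genes nearest in pattern to CXCL8, the member with the widest range, were PLPP7 (0.0233), LIPH (0.0501), PLAC1 (0.0733), MB (0.0916) and QPRT (0.0951). PLPP7 was above background on 3 of the arrays and the others on all 4. LIPH, for example, had levels of -4.11 and -2.95 at 48 h and of -4.96 and -4.06 at 96 h in control and knockdown cells. The other chemokines were farther from the pattern of CXCL8, from 0.339 for CXCL1 on A_23_P7144 to 0.675 for CXCL5. With 4 arrays the measure ranks 4-point patterns only.

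The genes around the chemokines were read from lists of 100 genes, of which 78 were tested. At the study's 2-fold and p cutoffs 4 of these 78 were higher in knockdown cells, against 1.06% of all 14556 genes tested. The 4 include CCL20, which was above background on the knockdown arrays only. Another 2 genes were lower, against 0.24%. When the 48 h control array was left out these counts were 11 and 0, and when the 96 h knockdown array was, 10 and 0, while the higher calls over all probes went from 206 to 347 and to 506. Among the receptors, CXCR1 stood at -6.39 and -5.86 at 48 h and at -5.76 and -5.33 at 96 h (log2 fold change 0.48, limma adjusted p = 0.793), close to background. CXCR2 was above background on no array, and the decoy receptor ACKR1 on the 96 h arrays only. Among the platelet chemokines encoded between the members, PPBP and PF4V1 were above background on no array, and PF4 differed by -0.04 (log2 scale, 95% interval -0.67 to 0.60, limma adjusted p = 0.992).

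Upstream of the chemokines, the 19 tested genes of 24 for cytokines, receptors and adaptors had a median log2 fold change of 0.08. IL1B, a strong inducer of these chemokines, was lower in knockdown cells, with log2 levels of 1.58 and 0.19 at 48 h and of 0.72 and -0.38 at 96 h in control and knockdown cells (log2 fold change -1.25, limma adjusted p over genes = 0.496, and 0.0252 with the block). Both knockdown arrays lay below both control arrays, where those of CXCL1, CXCL3 and CXCL8 lay above, and IL1B missed the cutoffs when the 48 h control array (-0.82) or the 96 h knockdown array (-0.96) was left out. TLR3, the receptor for double-stranded RNA, was higher, with levels of -5.03 and -2.24 at 48 h and of -5.24 and -4.11 at 96 h (log2 fold change 1.96, limma adjusted p = 0.545, and 0.0737 with the block), but not without the 96 h control array, where the log2 fold change was 1.86 and the cutoff on p was missed. IL1A, TNF and TLR4 were above background on no array. With the block, IL1RN, the antagonist of interleukin-1, and TLR2 were also higher at an adjusted p below 0.05, against 2.95% of all genes higher and 1.39% lower, with log2 fold changes of 0.81 and 0.71. When 1 array was left out, IL1RN lay between 0.14 (no 48 h knockdown array) and 1.47 (no 96 h knockdown array), and TLR2 between 0.32 (no 96 h control array) and 1.11 (no 48 h control array). For the matched arrays at 48 h and 96 h, IL1RN had 0.97 and 0.65, and TLR2 0.63 and 0.80. These 2 genes, like BIRC3, IL6 and PLAU further on, were named after their values were seen. A second IL1RN probe had 0.22.

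Of the 15 tested genes for NF-kB subunits, kinases and inhibitors, 7 were higher and 6 lower at both times, against 34.6% and 35.6% of all genes tested, with a median log2 fold change of 0.02, and none passed the 2-fold and p cutoffs. The largest differences were in NFKBIA and TNFAIP3, feedback inhibitors that NF-kB itself induces. NFKBIA, which holds NF-kB in the cytoplasm, differed by 0.65 on the log2 scale (limma adjusted p = 0.358, and 0.0411 with the block). TNFAIP3, the deubiquitinase A20, differed by 0.52 (limma adjusted p = 0.401, and 0.0494 with the block). With normexp background correction TNFAIP3 was at 0.25, and in the authors' normalized values at 0.30. Other regulators of the list were not all higher: NFKBIB differed by 0.16, NFKBIE by 0.11, TNIP1 by 0.015, BCL3 by -0.13, CYLD by -0.26 and NFKBIZ by -0.31. Of 12 listed transcription factors of the AP-1, C/EBP and EGR1 kind, 10 of the AP-1 and C/EBP families were tested, none passed the cutoffs and the median was 0.00. EGR1, above background on no array, and FOS, above it on the 48 h arrays only, were not tested. ATF3 had 0.59 (limma adjusted p = 0.892, and 0.043 with the block), with values between 0.06 (no 96 h control array) and 1.12 (no 48 h control array) when 1 array was left out, and FOSB -0.44 (limma adjusted p = 0.918, and 0.0651 with the block). For the matched arrays at 48 h and 96 h, ATF3 had 0.55 and 0.62, and FOSB -0.43 and -0.45. The other 3 ATF3 probes had 0.05, 0.20 and 0.67. The 8 proteins that bind elements of chemokine mRNAs had log2 fold changes between -0.06 and 0.24, the highest being ZFP36L1 at 0.24 and the RNase ZC3H12A at 0.23, and none passed.

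Of the 15 tested other genes that NF-kB drives, 11 were higher at both times and 2 lower, beside the same shares of all genes (34.6% and 35.6%), with a median log2 fold change of 0.31 against 0.00 over all genes. CCL20, a chemokine for dendritic cells and T cells, and LTB, a membrane-anchored cytokine of the tumour necrosis factor family, passed the cutoffs. LTB had levels of -4.13 and -2.20 at 48 h and of -4.42 and -2.36 at 96 h (log2 fold change 2.0, limma adjusted p = 0.232, and 0.0165 with the block). CCL20 was not well above background on the control arrays and was tested through the knockdown arrays alone. It was at least 1.81-fold higher in knockdown cells, taking the lowest signal above background as the control level. Its limma adjusted p-values (0.353, and 0.0267 with the block) rest on control values not well above background. The bound holds for the processing used here. The measured log2 fold change of CCL20 was 2.58, against 1.21 in the authors' normalized values and 0.61 with normexp background correction. The log2 fold change was 0.84 for BIRC3, 0.79 for IL6 and 0.97 for the protease PLAU, each past the adjusted p with the block. A second PLAU probe had 1.22 and passed the 2-fold and p cutoffs without the block. IL6 lay between 0.31 (no 96 h control array) and 1.26 (no 48 h control array) when 1 array was left out. Its matched arrays gave 0.72 at 48 h and 0.85 at 96 h.

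Of the 8 CXC chemokines without the ELR motif, some of which act mainly on lymphocytes, 5 were tested and none passed the cutoffs on its brightest probe. CXCL12 had a log2 fold change of 0.03 on that probe and of 0.998 on another tested probe, just below 2-fold. CXCL10 was above background only in knockdown cells and was at least 3.1-fold higher there (limma adjusted p = 0.626), while its second probe, with a log2 fold change of 2.77, passed the cutoffs. That bound holds for the processing used here: the measured log2 fold change of 2.11 on the first probe was 0.69 with normexp background correction, 1.01 in the authors' normalized values and 0.94 without the 48 h knockdown array. CXCL11 differed by 1.36 (log2 scale, limma adjusted p = 0.842), with 1.96 at 48 h and 0.75 at 96 h, and lay between 0.10 (no 48 h knockdown array) and 2.61 (no 96 h knockdown array) when 1 array was left out. With the block CXCL10 and CXCL11 passed the cutoffs, at limma adjusted p-values of 0.0523 and 0.0837. Of 4 tested other products that act on neutrophils, the granulocyte-macrophage colony-stimulating factor CSF2 was higher, with levels of -3.96 and -1.69 at 48 h and of -4.55 and -1.66 at 96 h (log2 fold change 2.58, limma adjusted p = 0.232, and 0.0252 with the block). CSF3, the granulocyte colony-stimulating factor, was lower (log2 fold change -1.09, limma adjusted p = 0.358, and 0.0252 with the block), and on the 96 h knockdown array it was not well above background. It missed the cutoffs when the 48 h control array (-0.86) or the 96 h knockdown array (-0.93) was left out.

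**Figure D4:**
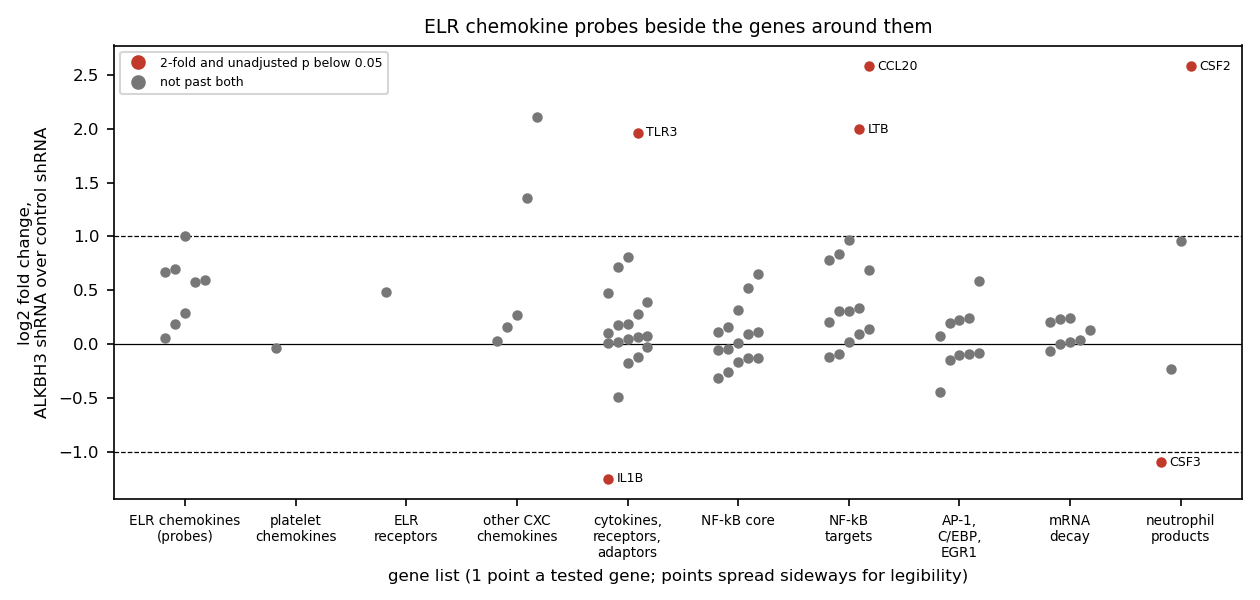
Log2 fold change of ALKBH3 shRNA over control shRNA for the 8 ELR chemokine probes and for the tested genes of 9 lists around them, 1 point a gene. Red points passed the study's 2-fold and p cutoffs, dashed lines mark 2-fold, and points are spread sideways for legibility. The ELR chemokines lie between 0.06 and 1.0, below CCL20, LTB, CSF2 and TLR3 and opposite to IL1B and CSF3.

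The kB letters of the chemokine promoters were also followed in other genes. Of 147 other genes with GGAATTTCC in the same window, 66 were tested, and 38 of these had a log2 fold change above 0, against 49.4% of all genes tested. Their median was 0.05, with an interquartile range of -0.12 to 0.21, against a median of 0.00 and an interquartile range of -0.12 to 0.13 over all genes. The study's cutoffs were passed by 2 of the 66, beside 1.06% of all genes tested that were higher and 0.24% that were lower. They were OAS3 (1.37) and SPATA6L (1.69), both higher and both named after their values were seen.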

How the data were processed

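RNA of control and ALKBH3 knockdown PC3 cells, taken 48 h and 96 h past selection, was read on single-colour Agilent arrays, 4 in all. The authors deposited spot intensities, from which Agilent Feature Extraction (10.7.3.1 in the file headers) had subtracted the background on each array, without normalization between arrays. Log2 values that the authors had normalized between arrays, deposited as a value table, served as an alternative.

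Poor spots were removed, and log2 intensities were averaged over the spots of a probe after each array had been centred on its 75th percentile over all spots that are not controls. A probe was tested if it was well above background on both control arrays or on both knockdown arrays, which held for 23244 probes. RefSeq accessions named 24910 of 34127 probes, a gene outside the members was read by its brightest tested probe, and NFKB2 was not matched. R 4.3.3, limma 3.58.1 (lmFit and eBayes, Benjamini-Hochberg adjustment over all probes or, for the genes of the lists, over all genes) and the data.table package (1.17.8) were used, and the steps were tested on simulated data. Time points pair the arrays: the 96 h minus 48 h difference with control shRNA and that with ALKBH3 shRNA correlated at 0.66 over probes, and both arrays of a time shared a slide.

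The members and gene lists were chosen with earlier results of these data known. Every member probe is given. Of the other lists, genes past 2-fold and an unadjusted p below 0.05 were named, filled up to 2 a list by size of change, with the 5 genes nearest in pattern to the widest-ranging member. A gene not above background with 1 shRNA has a lower bound only, set against the lowest signal among probes well above background. The alternatives were other background corrections, scalings and filters, the deposited values, genes in place of probes, blocks, the Student test, a 1.5-fold cutoff and leaving out each array.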

Additional observations from a re-analysis of the deposited data

Results flagged for a closer look

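PF4, a platelet chemokine gene that lies between the ELR chemokine genes, was lower in knockdown than in control cells at 48 h (log2 difference -0.10) and higher at 96 h (0.03). Its difference thus moved by 0.13 between the time points and turned sign, and with 1 array against 1 array at each time this was not tested.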

How the results depend on the processing

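With time point as a replicate block, 1 ELR chemokine probe (CXCL8) passed the 2-fold and p cutoffs in place of 0, and with a 1.5-fold cutoff 3 probes were higher and 1 was lower at 96 h. Leaving out each array gave 0 to 1 probe for each of these counts, 1 without the 48 h control array or the 96 h knockdown array. No setting gave a member probe that was lower in knockdown cells or higher at 96 h at the cutoffs. The median log2 fold change of the members lay between 0.39 and 0.79. Over the settings that omit 1 array, the log2 fold change of CXCL2 on A_23_P315364 ranged from -0.0064 (no 48 h knockdown array, the only setting in which a member was not higher) to 0.60, that of PF4 from -0.29 to 0.22 and that of FOSB from -0.89 to 0.011. For PF4 the sign turned without the 48 h control array (0.22) or the 96 h knockdown array (0.16), as it did for FOSB (0.0054 and 0.011). In the matched arrays at 48 h and 96 h, FOSB was -0.43 and -0.45, and PF4 -0.10 and 0.03. The log2 difference of 96 h from 48 h ranged from -0.58 to 0.19 for CXCL1 on A_33_P3330264, from -0.66 to 0.046 for CXCL2 on A_24_P257416, from -0.60 to 0.12 for CXCL3 and from -0.077 to 0.0082 for CXCL5. Its sign turned without the 48 h knockdown array for the first 3 of these and in the absence of the 96 h control array for CXCL1 (0.12) and CXCL5. For CXCL5 it also turned with normexp (0.13), quantile normalization (0.0004) and the authors' values (0.13). Of the pathway genes, the higher ones numbered 2 in the Student test, 7 with the 1.5-fold cutoff and 3 to 11 when 1 array was omitted, with 11 for the 48 h control array and 10 for the 96 h knockdown array. The lower ones numbered 1 with normexp, with the authors' values and with the filter on all 4 arrays, 0 in the Student test, and 0 to 2 when 1 array was omitted. Over all probes the counts higher and lower were 206 and 54, against 87 and 26 with normexp, 118 and 42 in the authors' values, 495 and 113 without the filter, 123 and 44 with the filter on all 4 arrays, 60 and 25 in the Student test, 595 and 292 at 1.5-fold, and 244 to 506 and 52 to 134 when 1 array was omitted. CSF3 was at -0.37 with normexp and -0.64 in the authors' values, and CCL20 at 0.61 with normexp, below 2-fold, and TLR3, IL1B, CCL20 and CSF3 missed the p cutoff in the Student test. Leaving out 1 array leaves 1 shRNA with a single time point, so part of the difference between the times enters the shRNA values. In the same way, part of the shRNA difference enters the time values. The causes of the other changes were not tested.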
